A study of Mus musculus with 6 samples.

Results

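The 38 genes described here encode proteins that make ribosomes in the nucleolus. They are a list of gene symbols, made up of subunits and factors of RNA polymerase I (Pol I), proteins of small nucleolar ribonucleoproteins (snoRNPs) and assembly factors of both ribosomal subunits. All 38 were found among the 21878 genes of the deposited table. RNA was measured in HT22 cells, an immortalized mouse line derived from hippocampal neurons, in 6 input libraries of an m6A immunoprecipitation experiment. The control group and the Al group, treated with 120 µM aluminum maltolate (maltol is the ligand that keeps the metal in solution) for 24 h, each held 3 libraries that the series describes as biological replicates. The samples carry only the letters C and M, and M was taken as the Al group because the series names no other treated group. The comparison group is called control, the methods' name for cells in medium alone, which they list apart from a maltol control. No library of maltol alone was analysed here, so ligand and metal cannot be told apart in these values. Both groups are 1 cell line of unstated genotype, and no engineered allele is named.

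Ribosome production starts in the nucleolus, where Pol I transcribes the repeated rRNA genes into a long precursor. Box C/D snoRNPs methylate this precursor and H/ACA snoRNPs turn chosen uridines into pseudouridine, while processome proteins and other assembly factors fold, cut and load it with ribosomal proteins. In cultured cells the pathway is tied to growth, MYC is known to activate many of its genes, and a nucleolus under stress is known to stabilise p53.

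The libraries held 37902258 to 44374068 reads on listed genes in the control group and 21047144 to 26572497 in the Al group, as recovered from the steps of the FPKM values (fragments per kilobase of transcript, scaled to library depth). A member had between 224 reads, for Polr1e in 1 Al library, and 35786 reads, for Ncl, in a library. These counts bear on the counting error only. Of the 10 neuronal markers examined, Snap25 and Nefm were at 0 in all 6 libraries and only Tubb3 had a mean of at least 1 FPKM. The summed FPKM of the neuronal list was 5.45 to 5.92 in the control and 2.66 to 4.24 in the Al libraries, against 3126 to 4364 and 3605 to 4578 for the 4 mesenchymal markers Col1a1, Col1a2, Dcn and Vim. The defining neuronal markers were thus near or at 0 in a line labelled neuronal. The summed FPKM of the 4 astrocyte markers, most of it Slc1a3, was 13.9 to 23.0 in the control and 1.51 to 2.61 in the Al libraries, and those of the oligodendrocyte and microglia markers were at most 1.35 in any library. Of the 26 markers, in FPKM divided by size factors, Slc1a3 (-2.96 on the log2 scale) and Dcn (-1.64) were called lower and Col1a1 (0.92) and Cx3cr1 (2.14, at a mean of 0.0665 and 0.542 FPKM) higher, so that the mesenchymal sum holds genes that moved in opposite directions. The part of these shifts in the values below was not tested. Libraries of the same group correlated at 0.990 to 0.992 (control) and 0.976 to 0.984 (Al) in log2 values, and Al replicate 3 stood farthest from the others.

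Most of the 38 genes had more RNA in Al-treated cells. By the study's thresholds (P under 0.05 before adjustment and a log2 fold change beyond 0.58 in size, in limma), 24 members rose, Ubtf alone fell and 13 were not called. With the adjusted P in place of the unadjusted one the counts were also 24 and 1. Of all 12889 genes tested, 26.2% were called higher and 24.4% lower. Among the members the share called higher was 63.2%, and the median log2 fold change was 0.89, beside 0.03 over all tested genes. All 3 Al values lay above all 3 control values for 30 members and below for 1, and this held for 35.1% and 33.1% of all tested genes, respectively. With 3 libraries against 3, the exact permutation test of a single gene cannot go below P = 0.1.

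These counts depend on how the libraries are set on one scale. The median deposited FPKM of the genes above 0 was 5.70 to 6.02 in the control and 3.33 to 4.34 in the Al libraries. Over all tested genes the median fold change (log2) was 0.03 after division by the size factors, -0.43 on FPKM as deposited and -0.72 on TPM (FPKM rescaled to a fixed sum per library). On deposited FPKM 11 members were called higher and 2 lower (Ubtf and Wdr12), and on TPM 10 were called higher and 6 lower (Ubtf, Polr1a, Ltv1, Bop1, Wdr12 and Ftsj3). Over all tested genes the calls were 3375 higher and 3143 lower on the main scale, 1805 and 5417 on deposited FPKM, 1200 and 6843 on TPM, and 2859 and 3115 after quantile normalization. The members' median lay 0.86 above the median of all tested genes on the main scale and 0.51 after quantile normalization. It was 0.84 on deposited FPKM and 0.82 on TPM, scales that differ from the main one by 1 factor per library and so leave this distance nearly fixed. Quantile normalization, which is not a single factor per library, called 18 members higher and 1 lower: the calls of Polr1c (0.50), Polr1d (0.46), Fbl (0.39), Dkc1 (0.48), Gar1 (0.46), Ncl (0.46) and Npm1 (0.41) were lost and Polr1e (0.58) was gained. Above the median of all tested genes stood 35 members on the main scale and 32 after quantile normalization. Bysl, Gnl3, Nhp2, Nop56, Nop58, Rrs1, Taf1d, Tsr1, Utp3 and Wdr43 were called higher under all 21 alternatives of scale, filter, model and left-out library, and Ubtf was called lower under all of them. The directions given below are those on the main scale, and a value called scaled FPKM is FPKM divided by the library's size factor.

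**Figure D1:**
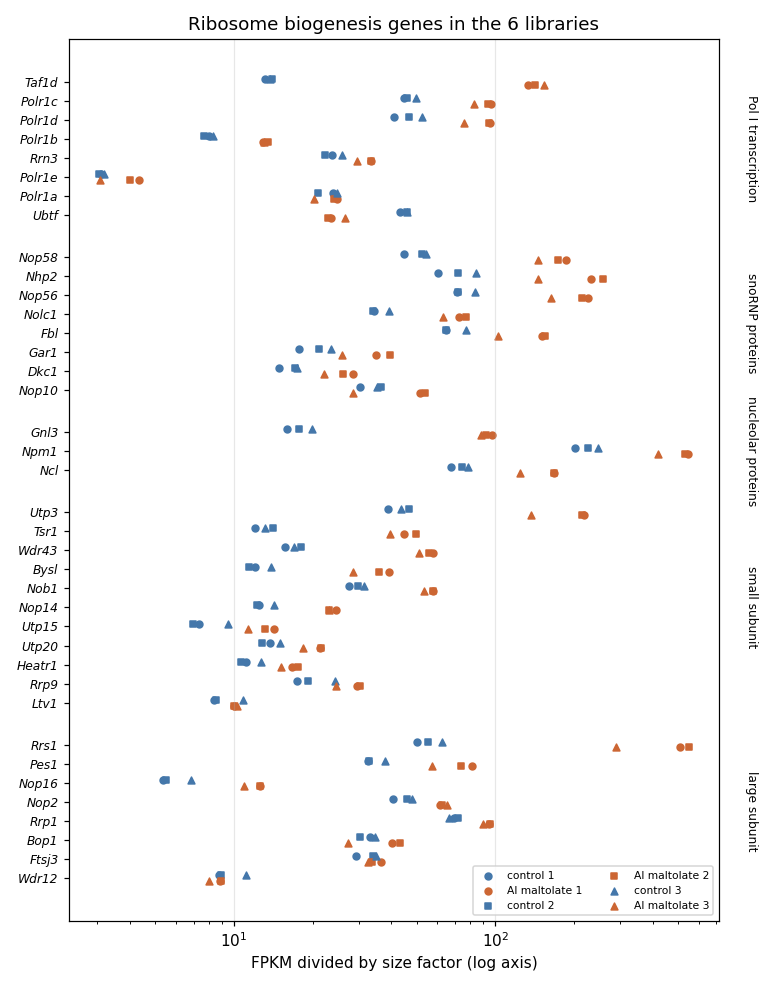
Scaled FPKM (log axis) of the 38 genes in each of the 3 control (blue) and 3 Al (orange) libraries, ordered within role by log2 fold change. Taf1d, Rrs1, Gnl3 and Utp3 show the widest gaps, Ubtf is the one gene with its Al values below its control values without overlap, and Al replicate 3 (triangle) was the lowest Al value in 22 of the 24 genes called higher.

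The members' summed FPKM made up 0.437% ± 0.0188 of a control library and 0.605% ± 0.0153 of an Al library (SD, n = 3 each). The share was 0.417%, 0.440% and 0.454% in control libraries, against 0.602%, 0.622% and 0.592% in Al libraries, with no overlap. A share of the summed FPKM is a value on the TPM scale, on which the members' median log2 fold change was 0.11, and abundant genes weigh most in it: the deposited FPKM of Rrs1 alone went from a mean of 66.5 to 376. The other biogenesis genes described below took 0.666%, 0.692% and 0.706% of control libraries and 0.687%, 0.694% and 0.766% of Al libraries, which overlapped. The mean log2 scaled FPKM over the 38 genes was 4.56, 4.63 and 4.78 in control libraries, against 5.69, 5.69 and 5.40 in Al libraries, so that Al replicate 3 lay between the other Al libraries and the control group. The libraries are bulk, and fewer cells that express a gene and less of its RNA per cell cannot be told apart.

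Promoter sequences are shown for 5 members to set the MYC-type E-box beside the fold changes. Tsr1 and Wdr43 had the highest fold changes of the members that carry the motif, Rrn3 carries it at 2 places, and Taf1d and Gnl3, the members with the highest fold changes of their role groups, do not carry it. The windows run from 250 bases before to 50 bases after the annotated start and were taken by symbol from RefSeq on GRCm38.p6, which held windows for 34 of the 38 members and not for Rrs1, Bop1, Fbl and Npm1. Capitals mark CACGTG, a motif that reads the same on both strands.
Tsr1, chr11:74897830-74898129 (+ strand): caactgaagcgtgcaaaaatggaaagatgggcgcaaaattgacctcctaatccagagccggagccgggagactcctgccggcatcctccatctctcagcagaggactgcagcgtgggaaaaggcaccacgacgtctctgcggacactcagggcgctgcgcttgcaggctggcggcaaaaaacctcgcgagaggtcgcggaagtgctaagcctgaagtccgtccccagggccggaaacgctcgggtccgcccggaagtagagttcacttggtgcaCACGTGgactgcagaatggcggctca
Wdr43, chr17:71615965-71616264 (+ strand): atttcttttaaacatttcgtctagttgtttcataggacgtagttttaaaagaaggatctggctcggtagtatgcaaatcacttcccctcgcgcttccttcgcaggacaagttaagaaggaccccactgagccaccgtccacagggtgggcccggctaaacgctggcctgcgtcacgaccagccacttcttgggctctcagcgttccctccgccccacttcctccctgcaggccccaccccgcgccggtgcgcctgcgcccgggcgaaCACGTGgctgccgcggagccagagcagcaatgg
Rrn3, chr16:13780449-13780748 (+ strand): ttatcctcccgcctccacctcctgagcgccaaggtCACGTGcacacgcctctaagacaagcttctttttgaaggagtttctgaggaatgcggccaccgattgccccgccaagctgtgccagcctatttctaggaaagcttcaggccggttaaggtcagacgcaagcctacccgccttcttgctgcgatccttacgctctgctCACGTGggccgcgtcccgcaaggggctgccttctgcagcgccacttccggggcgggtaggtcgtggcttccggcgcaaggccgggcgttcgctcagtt
Taf1d, chr9:15305964-15306263 (+ strand): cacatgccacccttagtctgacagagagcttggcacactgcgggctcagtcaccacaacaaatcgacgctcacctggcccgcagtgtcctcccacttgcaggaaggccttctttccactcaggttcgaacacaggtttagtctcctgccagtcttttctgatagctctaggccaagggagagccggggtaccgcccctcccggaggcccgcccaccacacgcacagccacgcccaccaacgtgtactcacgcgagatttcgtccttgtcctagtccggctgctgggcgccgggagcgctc
Gnl3, chr14:31019082-31019381 (- strand): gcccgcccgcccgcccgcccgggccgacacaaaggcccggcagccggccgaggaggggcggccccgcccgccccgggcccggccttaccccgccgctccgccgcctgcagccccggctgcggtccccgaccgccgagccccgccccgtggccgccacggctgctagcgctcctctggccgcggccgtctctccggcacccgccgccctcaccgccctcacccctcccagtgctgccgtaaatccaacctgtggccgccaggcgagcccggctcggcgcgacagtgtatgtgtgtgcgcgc
The motif stood in the windows of 7 of these 34 members (20.6%), namely Nop2, Ltv1, Utp20, Pes1, Tsr1, Rrn3 and Wdr43. It was found for 11.3% of the tested genes that have a window, 8.09% of all genes with a window, 16.7% of the other ribosome biogenesis genes with one and 9.38% of the ribosomal protein genes with one. Of the 7 members with the motif, Tsr1, Wdr43 and Pes1 were called higher and the other 4 were not called. A match is a description of the letters in this window only.

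In Pol I transcription, 4 of 8 members rose (Taf1d, Polr1c, Polr1d and Polr1b), Ubtf fell and 3 were not called, with a median log2 fold change of 0.56. Only Taf1d was called higher on deposited FPKM and on TPM, and Polr1b changed sign on TPM. Both ends of the whole list of 38 lay in this group.

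Taf1d encodes a subunit of the selectivity factor that places Pol I at the rRNA promoter, and it had the highest fold change of the 38 genes. Its scaled FPKM was 13.1, 13.9 and 13.8 in control libraries, against 133, 142 and 153 in Al libraries. The 2 groups lay far apart, with a mean of 13.6 ± 0.425 and 143 ± 9.77 (SD, n = 3 each) and a 10.5-fold difference. The log2 fold change of 3.38 ± 0.094 (SE, adjusted P = 1.44e-06) was above that of 99.7% of all tested genes. The gene lies on chromosome 9 from 15306214 to 15316991 (GRCm38), has 7 exons and holds 8 snoRNA genes on its own strand. Cep295 and 4931406C07Rik overlap it on the other strand, and 1 pseudogene copy matches its transcript with at least 90% identity over at least 50% of the length.

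Ubtf encodes UBF, which binds the rRNA gene promoter and body and keeps active repeats open. It had 43.03, 45.7 and 45.96 scaled FPKM in control libraries, against 23.5, 22.9 and 26.6 in Al libraries. Every Al value was below every control value. Its log2 fold change was -0.88 ± 0.097 (SE, adjusted P = 9.83e-05), and on chromosome 11 from 102304560 to 102319742 (GRCm38) the annotation places no gene on the other strand. The ratio of Taf1d to Ubtf, which needs no scaling, was 0.305, 0.305 and 0.300 in the control and 5.67, 6.18 and 5.75 in the Al libraries.

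The subunits of the polymerase itself did not move as one. Polr1a and Polr1b encode its catalytic subunits. Polr1a had 24.003, 20.9 and 24.7 scaled FPKM in control and 24.8, 24.1 and 20.2 in Al libraries, which overlapped (log2 fold change -0.01 ± 0.12, adjusted P = 0.938). Polr1b had 8.04, 7.70 and 8.33 in control against 12.9, 13.5 and 13.04 in Al libraries, with no overlap, and rose by 0.71 ± 0.096 (adjusted P = 0.000309). Polr1c and Polr1d encode the subunits that Pol I shares with Pol III. For Polr1c the values were 44.8, 45.8 and 49.7 in control against 96.5, 93.6 and 82.8 in Al libraries (log2 fold change 0.96 ± 0.10, adjusted P = 9.22e-05). For Polr1d they were 40.99, 46.8 and 52.2 in control against 95.04, 94.5 and 76.1 in Al libraries (log2 fold change 0.92 ± 0.13, adjusted P = 0.000400). Neither of these shared subunits overlapped between the groups. Polr1e, a Pol I subunit that helps the enzyme start and elongate, had the lowest level of the 38 genes, with 3.11, 3.04 and 3.20 in control and 4.33, 4.002 and 3.08 in Al libraries, and Al replicate 3 lay within the control range (log2 fold change 0.27 ± 0.16, adjusted P = 0.178). That value ran from 0.17 without Al replicate 1 to 0.42 without Al replicate 3. Within a library the ratio of Polr1c to Polr1a was 2.02 ± 0.167 in control and 3.96 ± 0.121 in Al libraries (SD, n = 3 each). Rrn3, the factor that makes Pol I competent to start, had 23.7, 22.3 and 25.9 scaled FPKM in control against 33.4, 33.5 and 29.6 in Al libraries. Its groups did not overlap, but its log2 fold change of 0.42 ± 0.10 (adjusted P = 0.00618) was under the threshold of 0.58, and on deposited FPKM it was -0.06.

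**Figure D2:**
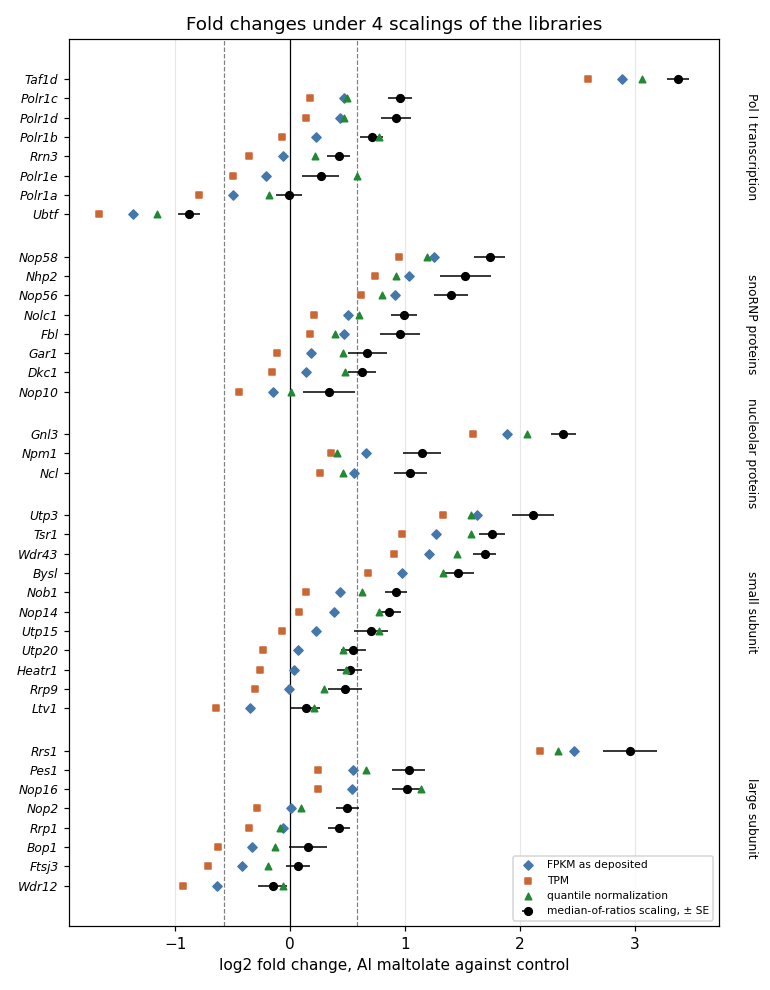
Log2 fold change of Al against control for the 38 genes on the main scale (black circles, bars ± SE), on deposited FPKM (blue), on TPM (orange) and after quantile normalization (green), with dashed lines at the threshold of 0.58 in both directions. Taf1d, Rrs1, Gnl3 and Utp3 are above the threshold on all 4 scales and Ubtf is below it on all 4, whereas genes such as Bop1 and Ftsj3 change sign.

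Of the 8 snoRNP proteins 7 rose and 1, Nop10, was not called, and the median log2 fold change was 0.97. On deposited FPKM and on TPM 3 of the 8 were called higher (Nop58, Nhp2 and Nop56), and Dkc1 and Gar1 changed sign on TPM. All 3 box C/D core genes among the members and 3 of the 4 of the H/ACA core were called higher, and the cores were not tested against each other.

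Fbl, the methyltransferase of the box C/D snoRNPs, had 64.8, 64.7 and 77.5 scaled FPKM in control and 150.5, 154 and 102 in Al libraries (log2 fold change 0.95 ± 0.17, adjusted P = 0.00138). Nop56 and Nop58 are the paired scaffold proteins of the same particle. Nop56 had 70.98, 71.98 and 83.9 in control and 227, 214 and 164 in Al libraries (log2 fold change 1.40 ± 0.15, adjusted P = 8.24e-05), and Nop58 had 44.6, 52.5 and 54.2 in control against 186, 174 and 145 in Al libraries (log2 fold change 1.73 ± 0.13, adjusted P = 1.87e-05). In all 3 genes the lowest Al value, that of replicate 3, was above the highest control value. Their proportions differed between the groups: within a library the ratio of Nop58 to Fbl was 0.733 ± 0.0673 in control and 1.26 ± 0.151 in Al libraries, and that of Fbl to Nop56 was 0.912 ± 0.0122 in control and 0.670 ± 0.0504 in Al libraries (SD, n = 3 each). Nop56 has 5 and Fbl 2 pseudogene copies by the same definition, which makes their levels uncertain if the counting split reads between copies, and Idh3b overlaps Nop56 on the other strand.

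Dkc1, the pseudouridine synthase of the H/ACA snoRNPs, had 14.9, 17.1 and 17.4 scaled FPKM in control and 28.5, 26.04 and 22.1 in Al libraries and a log2 fold change of 0.62 ± 0.12 (adjusted P = 0.00201). Gar1, which helps the particle bind and release its substrate, had 17.8, 21.1 and 23.6 in control against 34.99, 39.6 and 25.8 in Al libraries (log2 fold change 0.67 ± 0.17, adjusted P = 0.00822). Both were close to the threshold: the call of Dkc1 was lost without control replicate 1 (0.54) or Al replicate 1 (0.55), and that of Gar1 without control replicate 1 (0.55) or Al replicate 2 (0.54). Nhp2, the core protein that binds the guide RNA, had 60.4, 71.99 and 84.1 in control and 232, 259 and 145 in Al libraries, where replicate 3 was well below the other Al libraries (log2 fold change 1.52 ± 0.22, adjusted P = 0.000435). Nop10, the small protein that joins Nhp2 to Dkc1, had 30.3, 36.4 and 35.4 in control against 51.4, 53.8 and 28.4 in Al libraries, with Al replicate 3 below all control libraries (log2 fold change 0.34 ± 0.23, adjusted P = 0.222). Without that library its log2 fold change was 0.64 and it was called. The ratio of Nhp2 to Nop10 within a library was 1.99, 1.98 and 2.38 in the control and 4.51, 4.81 and 5.10 in the Al group, so that the separation of these partners was also seen in replicate 3. Nolc1, a phosphoprotein that accompanies snoRNPs, had 34.4, 33.9 and 39.03 scaled FPKM in control against 72.9, 77.4 and 63.2 in Al libraries (log2 fold change 0.99 ± 0.11, adjusted P = 0.000117).

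The nucleolar proteins Ncl, Npm1 and Gnl3 all rose, with a median log2 fold change of 1.14. On TPM only Gnl3 was called higher, on deposited FPKM Gnl3 and Npm1 were, and after quantile normalization only Gnl3 was. Npm1 encodes nucleophosmin, a histone and ribosome chaperone of the outer nucleolar layer, and was the most abundant of the 38 genes in the control group. It had 202, 226 and 246 scaled FPKM in control and 546, 531 and 419 in Al libraries (log2 fold change 1.14 ± 0.16, adjusted P = 0.000407), and its 7 pseudogene copies make the level uncertain. Ncl, nucleolin, which binds nascent rRNA, had 67.7, 74.6 and 78.6 in control against 167, 168 and 125 in Al libraries (log2 fold change 1.05 ± 0.14, adjusted P = 0.000300). The ratio of Ncl to Npm1 was 0.328 ± 0.00801 in control and 0.307 ± 0.00893 in Al libraries (SD, n = 3 each), a small difference but without overlap. Gnl3, nucleostemin, a GTPase of proliferating and stem cells, rose further, from 15.9, 17.7 and 19.8 in the control to 96.6, 92.3 and 88.1 in the Al libraries. The Al values of Gnl3 lay close together, and replicate 3 did not stand apart. Its log2 fold change was 2.37 ± 0.11 (SE, adjusted P = 4.03e-06), and its ratio to Npm1 was 0.0790 ± 0.00120 in control and 0.187 ± 0.0202 in Al libraries. Gnl3 lies on chromosome 14 from 31012433 to 31019152 (GRCm38), has 15 exons and holds 3 snoRNA genes, and Pbrm1 overlaps it on the other strand.

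Among the 11 small subunit assembly factors 7 rose (Utp3, Tsr1, Wdr43, Bysl, Nob1, Nop14 and Utp15), 0 fell by limma or limma voom (all 11 log2 fold changes were positive) and 4 were not called (Utp20, Heatr1, Rrp9 and Ltv1), with a median log2 fold change of 0.86. The first 4 of those 7 were called higher on deposited FPKM and on TPM too, and Ltv1 was called lower on TPM. Their roles run from the first cuts of the precursor to the last step in the cytoplasm, and genes called higher were found at early and late steps.

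Utp3, a processome protein encoded by 1 exon on chromosome 5 from 88554462 to 88556090 (GRCm38), had 38.7, 46.5 and 43.5 scaled FPKM in control and 217, 214 and 137 in Al libraries. Its log2 fold change was 2.11 ± 0.18 (adjusted P = 3.22e-05), although Al replicate 3 was well below the other Al libraries. Wdr43, Utp15 and Heatr1 belong to the processome part that binds the nascent precursor first. Of these, Wdr43 rose from 15.7, 17.98 and 17.03 to 57.9, 55.7 and 50.8 (1.69 ± 0.099, adjusted P = 7.88e-06) and Utp15 from 7.32, 6.97 and 9.45 to 14.3, 13.2 and 11.3 (0.70 ± 0.15, adjusted P = 0.00304). Heatr1 had 11.1, 10.7 and 12.7 in control against 16.7, 17.6 and 15.1 in Al libraries, without overlap but under the threshold (0.52 ± 0.11, adjusted P = 0.00360). Utp20, a large scaffold protein of the same particle, had 13.8, 12.8 and 15.03 in control against 21.3, 21.4 and 18.3 in Al libraries (0.55 ± 0.11, adjusted P = 0.00237), and the ratio of Utp3 to Utp20 was 3.11 ± 0.456 in control and 9.22 ± 1.53 in Al libraries (SD, n = 3 each). Utp3 and Wdr43 had larger fold changes than Heatr1 and Utp20, and the difference between these genes was not tested.

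Bysl and Tsr1 act in late maturation of the small subunit precursor. Bysl had 12.02, 11.4 and 13.9 scaled FPKM in control and 39.03, 35.98 and 28.5 in Al libraries (1.46 ± 0.14, adjusted P = 4.72e-05), and Tsr1 had 12.1, 14.05 and 13.1 in control against 44.6, 49.5 and 39.4 in Al libraries (1.76 ± 0.11, adjusted P = 1.14e-05). Nob1, the nuclease that makes the final end of the small subunit rRNA, had 27.5, 29.7 and 31.5 in control against 57.6, 57.6 and 53.2 in Al libraries (0.92 ± 0.095, adjusted P = 7.26e-05). All 3 were free of overlap between the groups. Ltv1, an assembly factor that leaves the particle late, was the lowest of the group in fold change, with 8.38, 8.57 and 10.8 in control and 10.01, 10.03 and 10.2 in Al libraries, which overlapped (0.13 ± 0.12, adjusted P = 0.371), and the log2 fold change ran from 0.056 without control replicate 1 to 0.24 without control replicate 3. Nop14, a processome protein, rose by 0.86 ± 0.099 (adjusted P = 0.000125). Rrp9, a protein of the snoRNP that guides the early cuts, changed by 0.48 ± 0.14 on the log2 scale, under the threshold (adjusted P = 0.0186). It crossed the threshold without Al replicate 3 (0.58, at the threshold to 2 decimals) or control replicate 3 (0.60). Utp20 crossed it without the same libraries (0.63 and 0.60), and Heatr1 without Al replicate 3 (0.59).

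Of the 8 large subunit assembly factors only Rrs1, Pes1 and Nop16 rose, and 5 were not called (Nop2, Rrp1, Bop1, Ftsj3 and Wdr12), with a median log2 fold change of 0.46. Rrs1 alone was called higher on deposited FPKM and TPM, where Wdr12 was called lower (with Bop1 and Ftsj3 on TPM), and Bop1, Rrp1 and Ftsj3 changed sign on these 2 scales and after quantile normalization.

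Rrs1, which helps bring a small ribonucleoprotein with Rpl5 and Rpl11 into the large subunit precursor, had 50.2, 55.2 and 62.5 scaled FPKM in control and 508, 551 and 290.4 in Al libraries. It had the second highest fold change of the 38 genes and the largest SD in the Al group, with a mean of 55.96 ± 6.23 and 449.8 ± 139.7 (SD, n = 3 each). The log2 fold change was 2.96 ± 0.23 (SE, adjusted P = 2.16e-05). The gene is 1 exon of 2048 bases on chromosome 1 from 9545408 to 9547455 (GRCm38), and 3 pseudogene copies make its level uncertain. Ftsj3, a methyltransferase of the large subunit precursor, had 29.3, 34.1 and 35.002 scaled FPKM in control against 36.5, 33.8 and 32.4 in Al libraries, which overlapped (0.07 ± 0.10, adjusted P = 0.605). The ratio of Rrs1 to Ftsj3 was 1.71, 1.62 and 1.79 in control libraries, against 13.9, 16.3 and 8.96 in Al libraries.

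Pes1, Bop1 and Wdr12 form the PeBoW complex, which is needed to cut the spacer next to the large subunit rRNA, and their RNAs did not move together. Pes1 had 32.7, 32.7 and 37.9 scaled FPKM in control and 81.7, 74.1 and 57.3 in Al libraries (log2 fold change 1.03 ± 0.14, adjusted P = 0.000330). Bop1 had 33.02, 30.4 and 34.6 in control against 40.4, 43.3 and 27.4 in Al libraries, with Al replicate 3 below all control values (0.15 ± 0.17, adjusted P = 0.447). Its log2 fold change was 0.37 without that library and 0.035 without Al replicate 2. Wdr12 had 8.74, 8.92 and 11.1 in control against 8.83, 8.91 and 8.02 in Al libraries, which overlapped (-0.15 ± 0.13, adjusted P = 0.322), and the log2 fold change ran from -0.22 without control replicate 1 to -0.052 without control replicate 3. Pes1 was thus the one member of the complex to be called. Within a library the ratio of Pes1 to Bop1 was 1.05 ± 0.0566 in control and 1.94 ± 0.203 in Al libraries, and that of Pes1 to Wdr12 was 3.61 ± 0.177 in control and 8.24 ± 1.05 in Al libraries (SD, n = 3 each), with no overlap for either. On the other strand, Scx and Mroh1 overlap Bop1, Carf overlaps Wdr12 and 4930556J24Rik overlaps Pes1. Pes1 and Wdr12 have 2 pseudogene copies each.

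Nop2, a cytosine methyltransferase of the large subunit rRNA, had 40.7, 45.8 and 47.8 scaled FPKM in control against 61.5, 62.4 and 65.1 in Al libraries, without overlap, and a log2 fold change of 0.50 ± 0.099 (adjusted P = 0.00238). Rrp1, a nucleolar factor of large subunit assembly, had 69.6, 71.7 and 66.7 in control against 94.3, 95.6 and 89.5 in Al libraries (0.43 ± 0.094, adjusted P = 0.00418). These 2 genes were separated between the groups but did not reach the threshold on the fold change. Nop16, a small factor of the same precursor, rose from 5.35, 5.52 and 6.85 to 12.6, 12.6 and 10.9 (1.02 ± 0.13, adjusted P = 0.000229).

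**Figure D3:**
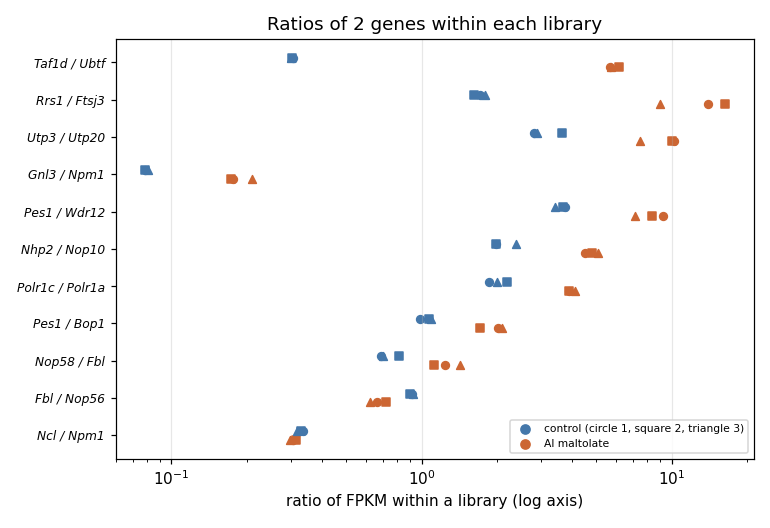
Ratio of the FPKM of 2 genes within each library (log axis), for the 3 control (blue) and 3 Al (orange) libraries. The Taf1d to Ubtf ratio goes from about 0.303 to 5.87, the Ncl to Npm1 ratio differs least, and no ratio shown overlaps between the groups.

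The within-library ratios were chosen after the values had been seen and are descriptions. All 12 computed were free of overlap between the groups, which was so for 68.1% of single tested genes in either direction. A ratio shows that its genes changed unequally and not which of them changed.

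A pair of features of the gene models, looked at after the values were known, ran along with the fold changes. The first was snoRNA genes inside a member on its own strand, as many box C/D and H/ACA guide RNAs are cut from introns of host genes. In GENCODE on GRCm38, 8 members held 29 such genes in all: Taf1d 8, Nop56 5, Nop58 4, Ncl, Gnl3 and Wdr43 3 each, Tsr1 2 and Dkc1 1. All 8 were called higher, with a median log2 fold change of 1.71. The second was a single exon, in Rrs1 and Utp3, whose median was 2.53. Of the 28 members with neither feature 14 were called higher and Ubtf lower, with a median of 0.61. On other scales fewer were called higher: 6 of the 8 hosts on deposited FPKM, on TPM and after quantile normalization, and of the 28 remaining members 3 higher and 2 lower on deposited FPKM, 2 higher and 6 lower on TPM and 10 higher and 1 lower after quantile normalization. Both single-exon genes were called higher on all 3. On TPM the medians were 0.93 for the hosts, 1.75 for the single-exon genes and -0.17 for the remaining members.

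The same features were also looked at outside the members. Among the other biogenesis genes, the 2 of 1 exon, Imp3 (1.13) and Exosc6 (1.67), were both called higher. Over 178 other tested genes with a snoRNA gene inside, 58 were called higher and 36 lower, with a median log2 fold change of 0.15, and over 342 other tested genes of 1 exon 134 were called higher and 86 lower, with a median of 0.32. Among ribosomal protein genes, the 30 with snoRNA genes inside had a median of 1.67 and the 54 tested ones without had 1.61. No host by this definition was found among the 123 other biogenesis genes. Some of them, such as Nhp2l1, Cirh1a, Utp11l and Gltscr2, had no gene model under the symbol used and were not checked. The snoRNAs themselves have no row in the table, so that their levels were not measured. These group values are descriptions of genes picked with results in view.

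**Figure D4:**
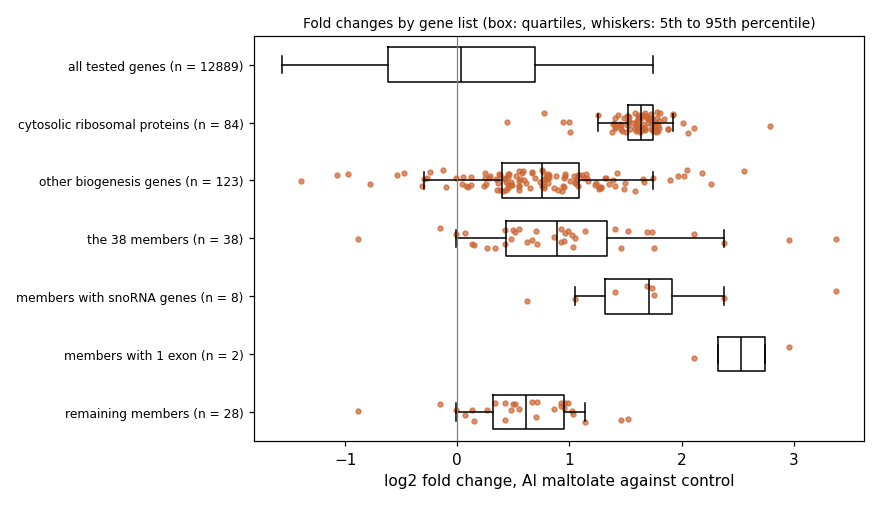
Log2 fold change (Al against control) of all tested genes, the cytosolic ribosomal protein genes, the other biogenesis genes, the 38 members, and the members split by gene model (points are genes, boxes span the quartiles with the median, whiskers the 5th to 95th percentile). The ribosomal protein genes form a narrow band around 1.64, and the members range from -0.88 to 3.38 around 0.89.

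The 38 genes were chosen to be set beside the ribosomal protein mRNAs. Of 84 tested cytosolic ribosomal protein genes 82 were called higher and 0 lower by limma and by limma voom (all 84 log2 fold changes were positive), with a median log2 fold change of 1.64. Their share of the summed FPKM was 15.5% ± 1.11 in control and 28.7% ± 1.11 in Al libraries (SD, n = 3 each). The ribosomal proteins lay in a narrow range, with quartiles at 1.52 and 1.75, whereas the quartiles of the members were 0.44 and 1.34. Thus Taf1d, Rrs1, Gnl3, Utp3, Tsr1, Nop58 and Wdr43 had a higher log2 fold change than the median ribosomal protein gene and the other 31 members a lower one. After quantile normalization 24 ribosomal protein genes were called higher, with a median of 0.39, and the members' median of 0.49 was then the higher of the pair, so that the order of the 2 lists depends on the scale.

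A further 123 genes of the same pathway, outside the 38, were examined by the same test. Of these, 70 were called higher and 4 lower on the main scale, 34 higher and 12 lower on deposited FPKM, and 16 higher and 19 lower on TPM, with a median log2 fold change of 0.76 on the main scale and -0.02 on TPM. By role, on the main scale, 7 of 14 in Pol I transcription, 5 of 9 in snoRNP assembly, 15 of 35 in small subunit assembly, 26 of 38 in large subunit assembly, 11 of 15 RNA helicases and 6 of 12 exosome genes were called higher. The order of the subunits was the reverse of that among the members, where 7 of 11 small subunit and 3 of 8 large subunit factors were called higher, and neither difference was tested. The highest fold change was that of Cd3eap, a Pol I subunit that pairs with the product of Polr1e. It had 7.79, 7.39 and 7.65 scaled FPKM in control and 54.6, 53.7 and 31.9 in Al libraries (log2 fold change 2.56 ± 0.19, adjusted P = 1.82e-05), beside 0.27 for Polr1e itself. Tsr3, which modifies the small subunit rRNA (2.26 ± 0.15, adjusted P = 1.17e-05), and Nip7, a large subunit assembly factor (2.18 ± 0.15, adjusted P = 1.41e-05), followed. The lowest were Gnl3l, a GTPase related to Gnl3 (-1.39 ± 0.10, adjusted P = 1.71e-05), Exosc5, an exosome subunit (-1.08 ± 0.10, adjusted P = 5.20e-05), and Baz2a, a subunit of the complex that silences rRNA genes (-0.98 ± 0.16, adjusted P = 0.000945). Shq1, a chaperone of Dkc1, was the fourth gene called lower (-0.78 ± 0.19, adjusted P = 0.00643), and it was named after its value was seen. Gnl3 and Gnl3l moved in opposite directions: Gnl3l had 31.9, 32.2 and 34.1 scaled FPKM in control and 11.1, 12.9 and 13.3 in Al libraries.

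Genes known to regulate the pathway were set beside the members. Myc, the activator of many ribosome biogenesis genes, had 45.2, 44.7 and 52.7 scaled FPKM in control and 115, 121 and 72.2 in Al libraries and rose by 1.07 ± 0.19 (SE, adjusted P = 0.00127). Max, its partner in binding the E-box, had 10.5, 10.9 and 13.3 in control against 21.4, 24.8 and 23.5 in Al libraries (1.01 ± 0.12, adjusted P = 0.000151). Neither was called on TPM, and Max was not called on deposited FPKM. Mxi1 and Mxd4, which pair with Max in place of MYC and repress, both fell. Mxi1 had 4.96, 4.65 and 5.47 in control against 1.64, 1.88 and 3.29 in Al libraries (-1.17 ± 0.24, adjusted P = 0.00294), and Mxd4 had 21.4, 22.3 and 14.7 in control against 7.37, 7.19 and 8.10 in Al libraries (-1.33 ± 0.16, adjusted P = 0.000167). Mxd1, of the same family, overlapped between the groups (0.16 ± 0.19, adjusted P = 0.474), with a range from 0.017 without Al replicate 3 to 0.30 without Al replicate 2. Mycn was at 0 in all libraries except 1 control library with 1 read.

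The genes of the nucleolar p53 checkpoint had more RNA in part. Rpl5 and Rpl11, which bind MDM2 when they are not built into ribosomes, rose by 1.46 ± 0.20 (adjusted P = 0.000323) and 1.63 ± 0.23 (adjusted P = 0.000403), and neither was called after quantile normalization. Both belong to the ribosomal protein list, of which 82 of 84 tested genes were called higher. That list had a median of 1.64 and quartiles of 1.52 and 1.75, so that neither gene rose more than its median. Mdm2, the p53 ligase and itself a p53 target, had 9.19, 9.26 and 11.5 scaled FPKM in control and 35.6, 40.7 and 30.7 in Al libraries (1.82 ± 0.14, adjusted P = 1.82e-05). Trp53 had 84.6, 84.1 and 88.1 in control against 143, 133 and 106 in Al libraries, without overlap, and a log2 fold change of 0.56 ± 0.13 (adjusted P = 0.00546) just under the threshold, which it crossed without Al replicate 3 (0.70) and which was -0.23 on TPM. Protein levels, rRNA synthesis and nucleolar structure were not measured in these libraries.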

How the data were processed

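The 6 input libraries were analysed as 3 control and 3 Al samples; no immunoprecipitated library was used here. The authors trimmed reads with Trimmomatic, removed rRNA reads with SortMeRNA and aligned with HISAT2 to GRCm38/mm10 per the methods, whereas the processing notes name fastp, HISAT2, HTSeq and GRCm39 and the series text names a build that is not of mouse. Libraries came from a stranded mRNA kit, and the strand setting of the counting is not given in the sources used here. The authors deposited FPKM per gene symbol, scaled to library depth and with no further factor between libraries, and used DESeq2 for their own calls.

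Whole reads were recovered from the FPKM steps for 17688 of the 17688 genes above 0 (tolerance 0.001 reads). In a simulated table of 17232 genes, 100% came back apart from a shared divisor, 96.6% of them without one. FPKM were divided by median-of-ratios size factors (genes above 0 in all 6 libraries, mean FPKM of at least 1), and log2(value + 0.1) was tested for 12889 genes (filter: mean FPKM over the 6 libraries 0.1 or more) with limma 3.58.1 (R 4.3.3; lmFit, eBayes with trend). Calls required P under 0.05 before adjustment and a log2 fold change beyond 0.58 in size; adjustment was by Benjamini-Hochberg across the tested genes, and fold changes of low genes are understated by the pseudocount. On simulated data for 12814 genes, 200 of them were changed by a log2 fold change of 1. Of these 200, 99% were called, and 0.404% of the unchanged genes were. In the libraries themselves 3375 genes were called higher and 3143 lower. The share of unchanged genes called was not tested with that many changes.

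The members and lists were chosen with earlier results of these data known. Values in every library are given for the members with the highest and lowest log2 fold change of each role group, members called in the rarer direction and members of named complexes; of the other biogenesis genes the 3 highest and 3 lowest with an adjusted P under 0.05 are named, and all regulators; further members were added for their role. Gene models came from GENCODE vM21 and promoters from RefSeq (GRCm38), by symbol; pseudogene copies were found with minimap2 2.31-r1302 (identity of at least 90% over at least 50% of the transcript and 200 bases). Of the members, 17 overlap a gene on the other strand and 9 have such copies, and both kinds of value are uncertain. Python 3.11.15 with numpy 2.4.6 and pandas 2.3.3 was used for tables. Protein sequences were not used here.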

Additional observations from a re-analysis of the deposited data

How the results depend on the processing

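The 21 alternatives covered the scale, pseudocount, filter, trend, GC correction, thinning, voom on recovered reads, thresholds, a replicate block and each library left out. The scale mattered most. On FPKM as deposited 11 members were called higher and 2 lower (median 0.41), 34 other biogenesis genes higher and 12 lower (0.28), ribosomal proteins had a median of 1.15, and 1805 of all tested genes were called higher and 5417 lower. On TPM the counts were 10 and 6 (0.11) for members and 16 and 19 (-0.018) for other biogenesis genes, the ribosomal protein median was 0.85, and 1200 of all tested genes were higher and 6843 lower. After quantile normalization 18 members were called higher and 1 lower, and the medians were 0.49 (members), 0.64 (other biogenesis genes) and 0.39 (ribosomal proteins, 24 called higher), with 2859 of all tested genes higher and 3115 lower. The median of the other biogenesis genes was also 0.64 with GC correction, with and without the block, and 0.67 with a pseudocount of 1. By adjusted P with no threshold on the fold change, 96 of them were higher and 7 lower, beside 30 members higher and 1 lower and 4154 of all tested genes higher and 3855 lower. All tested genes shifted by -0.46 on deposited FPKM and by -0.75 on TPM.

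Single genes changed sign on these scales. On deposited FPKM these were Polr1e (-0.21), Rrn3 (-0.064), Nop10 (-0.15), Rrp9 (-0.0091), Ltv1 (-0.35), Bop1 (-0.33), Rrp1 (-0.062), Ftsj3 (-0.42) and Mxd1 (-0.31). On TPM they were Polr1b (-0.073), Polr1e (-0.50), Rrn3 (-0.36), Dkc1 (-0.16), Gar1 (-0.12), Nop10 (-0.45), Utp15 (-0.075), Utp20 (-0.23), Heatr1 (-0.27), Rrp9 (-0.31), Ltv1 (-0.65), Bop1 (-0.63), Nop2 (-0.29), Rrp1 (-0.36), Ftsj3 (-0.72), Mxd1 (-0.60) and Trp53 (-0.23). After quantile normalization they were Bop1 (-0.13), Rrp1 (-0.090), Ftsj3 (-0.19) and Trp53 (-0.023). Deposited FPKM and TPM differ from the main scale by 1 factor per library, which moves all its genes together.

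With each library left out in turn, 22 to 28 members were called higher and the members' median was 0.82 to 0.94; 70 to 76 other biogenesis genes were higher and 4 to 5 lower (median 0.67 to 0.79), 82 ribosomal protein genes were higher in each case (median 1.55 to 1.80), and 3197 to 3468 of all tested genes were higher and 2962 to 3294 lower. Polr1a, at -0.01 with all libraries, ranged from -0.098 to 0.090 (0.0049 without control replicate 1 and 0.024 without control replicate 3), and Ftsj3 ranged from -0.024, without control replicate 1, to 0.11. The values of Polr1e, Ltv1, Bop1, Wdr12 and Mxd1, none of them called, kept their sign over the ranges given above. Calls of Dkc1 and Gar1 were lost, and those of Nop10, Utp20, Heatr1 and Rrp9 gained, as given above. The same-numbered libraries did not deviate together (correlations of -0.0329, -0.0257 and -0.0733). From 3 libraries per group, these values cannot show whether same-numbered samples were handled together. With the replicate block 24 members were called higher and 1 lower. GC correction called 26 members higher, with Rrp9 (0.65) and Nop2 (0.62) gained. The planned protein features were not run. Depth limits low genes most, and at 224 or more reads per library no member was near a count of 0.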
